A study of Mus musculus with 13 samples.

Results

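The 9 genes described here, Dppa2, Dppa3, Dppa4, Dppa5a, Tdgf1, Utf1, L1td1, Fbxo15 and Gdf3, are classical markers of mouse embryonic stem cells. They were taken by gene symbol from a table of 24470 genes, and all 9 had a row of their own. The study tested a low-input protocol that reads open chromatin and messenger RNA from the same cells, in E14 mouse embryonic stem cells, a single line of 129/Ola background grown with serum and Leukemia Inhibitory Factor. Experiment 1 used 10000 and 20000 cells, and experiment 2, on another day, used 5000, 10000 and 20000 cells. Each of these 5 inputs gave 1 mRNA library and 1 ATAC library, in which the transposase Tn5 cuts accessible DNA. As the benchmark, 5000, 10000 and 50000 cells of the same line went through Omni-ATAC, an earlier ATAC protocol, once each. All groups share the cell line and the medium, no gene was altered and no agent was compared, so the groups differ only in protocol, cell number and experiment.

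Embryonic stem cells keep the ability to form all tissues of the embryo through a core network of transcription factors around Oct4 (gene Pou5f1), Sox2 and Nanog, and marker genes of this kind were found because their transcripts are abundant in these cells and disappear on differentiation. The markers themselves do different work. Dppa2 and Dppa4 form a chromatin-binding pair, Dppa3 protects DNA from changes in methylation, Utf1 binds chromatin at developmental genes, Dppa5a and L1td1 bind RNA, Fbxo15 is the substrate-binding part of a ubiquitin ligase, and Gdf3 and Tdgf1 are a secreted ligand and a coreceptor of the Nodal pathway. In cultures with serum, embryonic stem cells are known to be a mixture, and Dppa3 in particular is known to be switched on in some cells of a dish and off in others.

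The total count per mRNA library ran from 13727122 to 20426252, so that a count of 0 would allow a level of up to 0.147 to 0.219 CPM (each gene's count scaled to a common library total; a floor of 3 counts). No marker gene was at 0 in any library. Oct4, Sox2, Nanog, Zfp42 and Esrrb, the defining markers of the labelled cell type, summed to 941 to 1021 CPM in experiment 1 and to 1068 to 1151 CPM in experiment 2. Markers of other cell types were low, but 3 of their lists had members that passed the test between experiments. The 7 primitive endoderm markers summed to 11.6 to 15.5 CPM in experiment 1 and 2.69 to 2.84 CPM in experiment 2, with Gata6 and Dab2 lower among the 4 tested and no marker at 0 in all 5 libraries. The 7 fibroblast markers summed to 31.4 to 34.9 against 7.54 to 10.0 CPM, mostly Thy1, with Col3a1 and Lum at 0 in all 5 libraries. The 3 neural markers summed to 4.23 to 5.62 against 11.1 to 14.4 CPM, with Pax6 at 2 and 0 counts in experiment 1 and 93, 108 and 72 counts in experiment 2. The 4 primed epiblast markers summed to 33.8 to 40.7 against 26.6 to 39.3 CPM, with 0 calls among 3 tested. The 4 mesendoderm markers summed to 0.583 to 2.01 against 1.25 to 3.68 CPM, with 0 calls and 1 tested. The 4 trophoblast markers summed to 0.364 to 0.736 against 0.979 to 1.13 CPM, which do not overlap, but all 4 were too low to be tested. The part of these cell types in the differences between experiments below was not tested. In bulk RNA, fewer cells that express a gene and less RNA per cell cannot be told apart.

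The promoter windows of 3 of the 9 genes, from 250 bases before to 50 bases after the start site in RefSeq (GRCm38.p6), are shown with the peaks that lay on them; these are the 3 with an entry in the promoter table. Capitals mark the bases inside a peak of the Omni-ATAC list of 50000 cells for all 3 genes. The windows are chr7:139943606-139943905 on the plus strand for Utf1, chr4:98726504-98726803 on the plus strand for L1td1, and chr9:110946109-110946408 on the minus strand for Tdgf1.
Utf1: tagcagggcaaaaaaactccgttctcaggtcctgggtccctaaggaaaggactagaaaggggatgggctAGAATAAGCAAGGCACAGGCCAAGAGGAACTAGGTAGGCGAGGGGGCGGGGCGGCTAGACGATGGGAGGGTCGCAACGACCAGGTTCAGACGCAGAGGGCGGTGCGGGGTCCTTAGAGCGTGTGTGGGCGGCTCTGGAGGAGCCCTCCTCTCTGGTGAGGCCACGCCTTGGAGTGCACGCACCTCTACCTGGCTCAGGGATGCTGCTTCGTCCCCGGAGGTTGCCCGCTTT
L1td1: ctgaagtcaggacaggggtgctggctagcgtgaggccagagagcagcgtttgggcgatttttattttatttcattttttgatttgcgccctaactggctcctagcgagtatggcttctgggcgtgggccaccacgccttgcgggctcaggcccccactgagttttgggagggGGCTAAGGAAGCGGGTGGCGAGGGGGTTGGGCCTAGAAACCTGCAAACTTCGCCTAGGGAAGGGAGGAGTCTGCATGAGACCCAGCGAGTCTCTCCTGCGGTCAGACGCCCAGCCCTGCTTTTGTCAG
Tdgf1: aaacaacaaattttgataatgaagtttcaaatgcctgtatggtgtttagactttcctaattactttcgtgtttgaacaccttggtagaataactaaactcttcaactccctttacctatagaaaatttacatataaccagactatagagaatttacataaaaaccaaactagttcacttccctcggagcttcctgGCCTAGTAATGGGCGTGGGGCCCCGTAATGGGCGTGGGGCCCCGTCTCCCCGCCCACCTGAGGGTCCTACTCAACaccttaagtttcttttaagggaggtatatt
In that list 231 of the 300 bases of the Utf1 window were in a peak, from -181 to the end of the window, beyond which the peak went on to 208 bases after the start. For L1td1 it was 128 bases, from -78 to the end of the window, with the peak going on to 67. For Tdgf1 it was 75 bases, from -55 to 19. The other lists covered less: 9 to 219 bases of the Utf1 window in 6 lists, 68 and 19 bases of the L1td1 window in 2 lists, and none of the Tdgf1 window. The Utf1 window held 17 CpG dinucleotides and 62% G and C, the L1td1 window 14 and 58.7%, and the Tdgf1 window 7 and 41.7%. Over all 32851 promoter windows the medians were 7 CpG and 52.7%.

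Short motifs were searched in these windows on both strands. The searched letters were ATGCAAA for Oct factors (in 4.63% of all windows), ACAATG for Sox factors (12.6%), GGGTGTG for Klf factors (7.95%), GGGCGG for the GC box (35.7%), AAGGTCA for Esrrb (4.72%), TTCCNGGAA for STAT factors (1.15%), CACGTG for the E-box (7.15%), CCAAT (37.4%) and TATAAA (13.6%). Only the GC box was matched. Utf1 had 4 copies on its own strand, starting at -138, -133, -85 and -56, the first pair overlapping each other, and all 4 lay inside the peak. Tdgf1 had 1 copy at -6 on the opposite strand, also inside its peak, and L1td1 had 0. No matched copy overlapped another kind of motif. The Tdgf1 window also held a direct repeat of 19 bases, gtaatgggcgtggggcccc, with copies at -50 and -31 and a gap of 0 bases between them, both inside the peak. Of all windows 1.48% held a direct repeat at least as long, and the median was 8 bases.

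Levels were compared first between experiments, as the protocol was run again on another day. Fbxo15, Gdf3 and Dppa3 were higher in experiment 2, by log2 fold changes of 1.84, 1.05 and 3.17, and Utf1 was lower, by -0.57. The other 5 genes did not pass the test. Of the 9 genes, all of which passed the filter on low counts, 4 were called by edgeR's quasi-likelihood test at a Benjamini-Hochberg adjusted p under 0.05, against 12.5% of the 12523 genes tested (5.75% higher and 6.76% lower). The fit used the libraries of 10000 and 20000 cells, 2 per experiment, and the library of 5000 cells stood outside it. The libraries of an experiment share a day and nothing says that they came from separate cultures, so these p-values measure only the spread between these libraries. The median log2 fold change was 0.08 over the 9 genes and 0.00 over all genes tested. In CPM the ranges of the experiments over all 5 libraries did not overlap for 5 of the 9 genes, against 41.5% of 12522 genes: 3 were higher in experiment 2, against 17.6%, and 2 were lower, against 23.9%. Summed over the 9 genes the level was 3038 to 3294 CPM, or 0.304% to 0.329% of a library's counts, and the experiments overlapped.

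**Figure D1:**
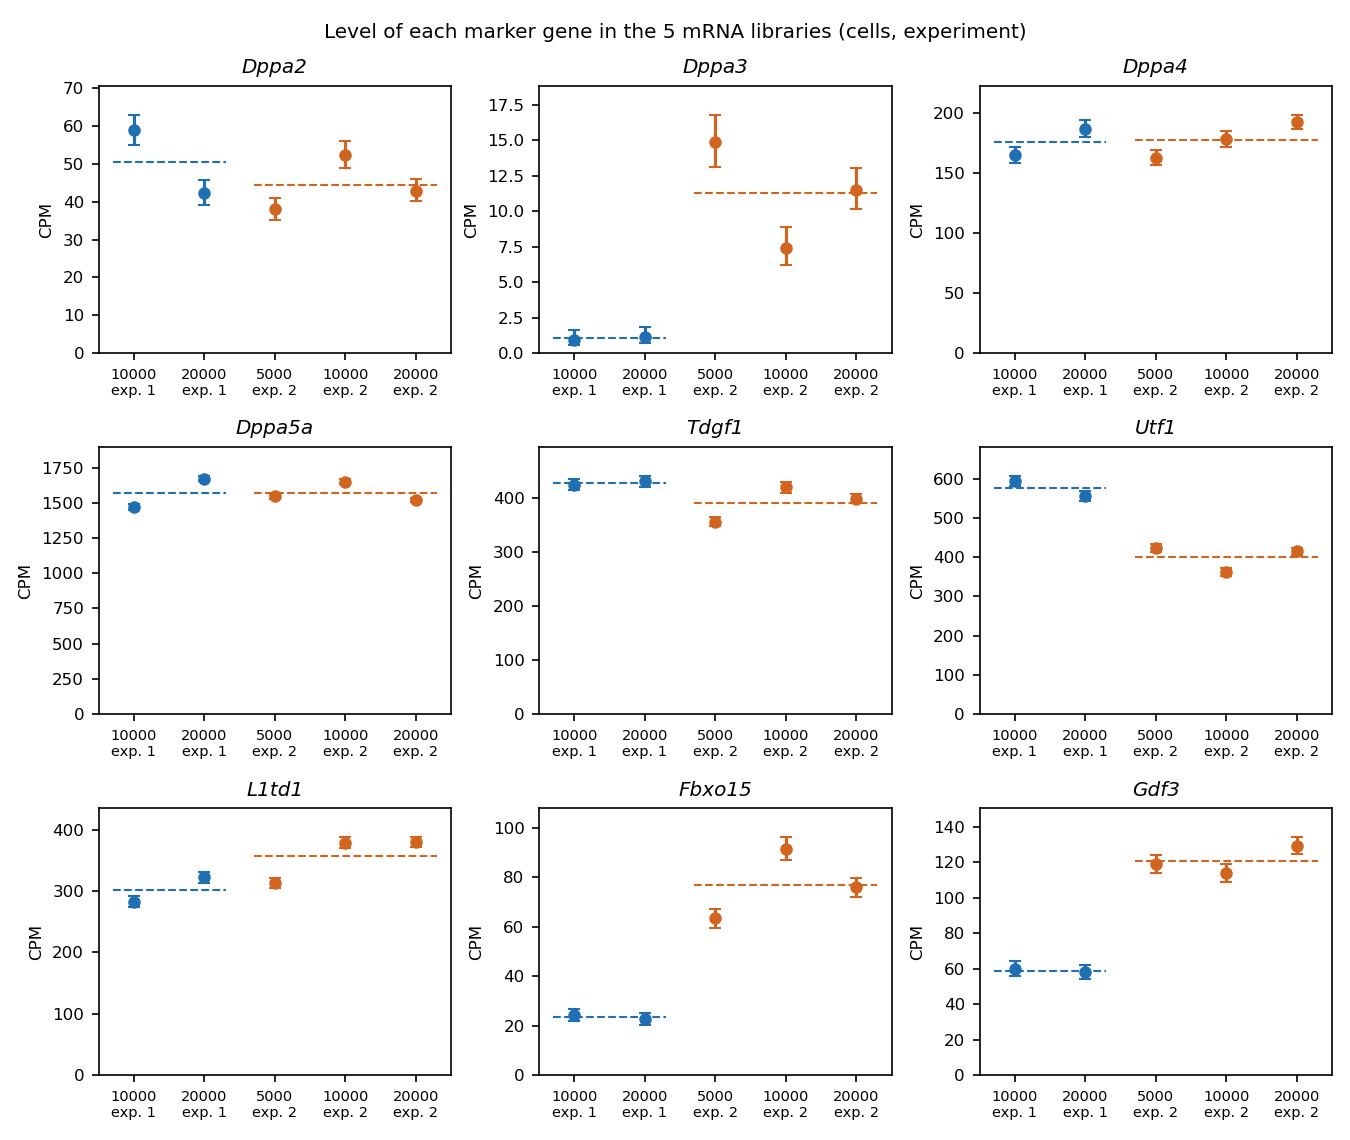
CPM of each of the 9 marker genes (vertical axes, each from 0) in the 5 mRNA libraries (horizontal axes, number of cells and experiment; blue experiment 1, orange experiment 2), with 95% Wilson intervals as bars and dashed lines at the experiment's mean. Dppa3 (0.947 to 1.14 against 7.42 to 14.9 CPM), Fbxo15 (22.5 to 24.1 against 63.3 to 91.5 CPM) and Gdf3 (57.8 to 60.0 against 114 to 129 CPM) are higher in every library of experiment 2, and Utf1 and Tdgf1 are lower.

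Values below are given in the order 10000 and 20000 cells of experiment 1, then 5000, 10000 and 20000 cells of experiment 2. Coordinates are mm10, as in the count table, and equal RefSeq's except where stated.

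Among the chromatin proteins, Dppa2 and Dppa4 are neighbours on chromosome 16 and their products bind DNA as a complex that primes developmental and early embryonic genes. Dppa2 (gene 73703, chr16:48310274-48319513, plus strand) was at 58.9 and 42.3 CPM and at 38.1, 52.4 and 43.0 CPM. The highest and lowest libraries were thus in different experiments, the ranges overlapped, and the library of 10000 cells was the highest of either experiment. The log2 fold change of experiment 2 over experiment 1 was -0.08 ± 0.17 (SE, edgeR, adjusted p = 0.818). Dppa4 (gene 73693, chr16:48283735-48294292, plus strand) was at 165 and 187 CPM and at 162, 178 and 192 CPM. These libraries differed little, with a coefficient of variation (SD over mean) of 7.44% over the 5 against 18.1% for Dppa2. Its log2 fold change was 0.08 ± 0.12 (edgeR, adjusted p = 0.758).

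Dppa3, also called Stella, binds Uhrf1 and keeps the maintenance methyltransferase Dnmt1 from its targets. Dppa3 (gene 73708, chr6:122626424-122630271, plus strand) had 13 and 17 counts and 249, 115 and 235 counts, which is 0.947 and 1.14 CPM and 14.9, 7.42 and 11.5 CPM. All 3 libraries of experiment 2 were far above both libraries of experiment 1, and the ranges did not overlap. In the 4 libraries tested the means were 1.04 ± 0.135 CPM and 9.46 ± 2.89 CPM (SD, n = 2 each), and the log2 fold change was 3.17 ± 0.40 (edgeR, adjusted p = 5.85e-06). At 10000 cells the ratio of CPM was 7.83 and at 20000 cells 10.1. Dppa3 varied most of the 9 genes, with a coefficient of variation of 86.2% over all 5 libraries, and still 33.1% within experiment 2. It also had the fewest counts, and the Wilson interval of its value at 10000 cells in experiment 1 reached up to 1.62 CPM.

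Utf1 is a chromatin-bound regulator whose gene is a known target of Oct4 and Sox2. Utf1 (gene 22286, chr7:139943856-139945112, plus strand) was at 595 and 557 CPM and at 424, 362 and 415 CPM. Both libraries of experiment 1 were above all 3 of experiment 2. The means of the tested libraries were 576 ± 27.4 and 389 ± 37.5 CPM (SD, n = 2 each), with a log2 fold change of -0.57 ± 0.11 (edgeR, adjusted p = 0.00145). The ratio of CPM of experiment 2 to experiment 1 was 0.608 at 10000 cells and 0.746 at 20000 cells, so the change did not reach the 2-fold threshold used as an alternative rule.

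Neither RNA-binding marker passed the test between experiments. Dppa5a (gene 434423, chr9:78367052-78368199, minus strand), a small protein with a KH-type RNA-binding fold, was at 1469 and 1673 CPM and at 1548, 1652 and 1521 CPM. No experiment was higher, and its coefficient of variation of 5.54% was the smallest of the 9 genes in CPM. In TMM-scaled CPM this rank did not hold, with 6.58% for Dppa5a, 5.05% for Tdgf1 and 5.82% for Dppa4. The log2 fold change was 0.02 ± 0.11 (edgeR, adjusted p = 0.953), with a 95% interval from -0.21 to 0.24. L1td1 (gene 381591, chr4:98726754-98738486, plus strand), an RNA-binding protein that derives from a LINE-1 element and partners with Lin28, was at 283 and 323 CPM and at 313, 379 and 380 CPM. The libraries of 10000 and 20000 cells in experiment 2 were the highest, but the one of 5000 cells lay between the libraries of experiment 1. Its log2 fold change of 0.33 ± 0.12 missed the threshold with edgeR (adjusted p = 0.0639), and it passed with DESeq2 (adjusted p = 0.0301), without the filter on low counts (edgeR, adjusted p = 0.0409) and among genes of at least 10 CPM (edgeR, adjusted p = 0.0395).

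Fbxo15, an F-box protein, is a target of Oct4 and Sox2 best known as a reporter gene of reprogramming. Fbxo15 (gene 50764, chr18:84935025-84981392, plus strand; RefSeq's gene begins 473 bp upstream and ends 84 bp downstream) was at 24.1 and 22.5 CPM and at 63.3, 91.5 and 75.8 CPM. Every library of experiment 2 was above both of experiment 1. The means of the tested libraries were 23.3 ± 1.11 and 83.7 ± 11.1 CPM (SD, n = 2 each), and the log2 fold change of 1.84 ± 0.16 (edgeR, adjusted p = 1.36e-08) had the smallest p of the 9 genes, rank 15 among the 12523. The ratios of 3.79 at 10000 cells and 3.36 at 20000 cells were close to each other.

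In the Nodal pathway, Gdf3 is a ligand of the TGF-beta family that signals through activin receptors with the help of Cripto, the product of Tdgf1. Gdf3 (gene 14562, chr6:122605403-122610071, minus strand; RefSeq's gene starts 16 bp further upstream) was at 60.0 and 57.8 CPM and at 119, 114 and 129 CPM. The experiments did not overlap, and within each the libraries were close together. The means of the tested libraries were 58.9 ± 1.51 and 122 ± 11.1 CPM (SD, n = 2 each), and the log2 fold change was 1.05 ± 0.13 (edgeR, adjusted p = 5.55e-06). Tdgf1 (gene 21667, chr9:110939608-110946158, minus strand) was at 425 and 431 CPM and at 356, 420 and 399 CPM. Its ranges did not overlap either, but by a small margin, and the test of the 4 libraries gave a log2 fold change of -0.06 ± 0.11 (edgeR, adjusted p = 0.788). Ligand and coreceptor thus differed in outcome: Gdf3 passed the test and Tdgf1 did not, and the difference between their fold changes was not tested.

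RefSeq lists near copies of 3 of these genes, namely Dppa5b and Dppa5c, Tdgf1-ps1 and Tdgf1-ps2, and Dppa3-ps, none of them with a row in the count table. How reads that match several places were counted is not stated, so the levels of Dppa5a, Tdgf1 and Dppa3 are uncertain to that extent.

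The mRNA libraries also differed in cell number. For these markers 20000 against 10000 cells gave 0 calls of 9, with 0% of the 12523 genes called by edgeR at an adjusted p under 0.05, also 0 of 9 with DESeq2. At an unadjusted p under 0.05 edgeR had 0.807% of all genes (101 genes) and 0 of the 9. With the experiment as a replicate block edgeR called 4 genes, 0 of them markers. Dppa2 had the smallest p, with a log2 fold change of -0.40 ± 0.19 (edgeR, adjusted p = 0.999), and was lower at 20000 cells in both experiments, by log2 ratios of -0.48 and -0.29. The 95% interval of the log2 fold change was -0.34 to 0.37 for Dppa5a and -0.40 to 0.32 for Tdgf1. For genes that differed between experiments it was wider, -2.20 to 3.34 for Dppa3 and -1.97 to 1.46 for Fbxo15, as each cell number holds a library of either experiment. With the experiment as a replicate block the estimates were tighter, 0.49 ± 0.40 in place of 0.57 ± 1.16 for Dppa3 and -0.21 ± 0.15 in place of -0.25 ± 0.72 for Fbxo15 (log2 fold change ± SE), with edgeR adjusted p of 0.998 for each in the blocked fit. edgeR put the biological variation between libraries of a group at 32.0% (coefficient of variation) for the cell numbers and at 17.1% for the experiments.

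**Figure D2:**
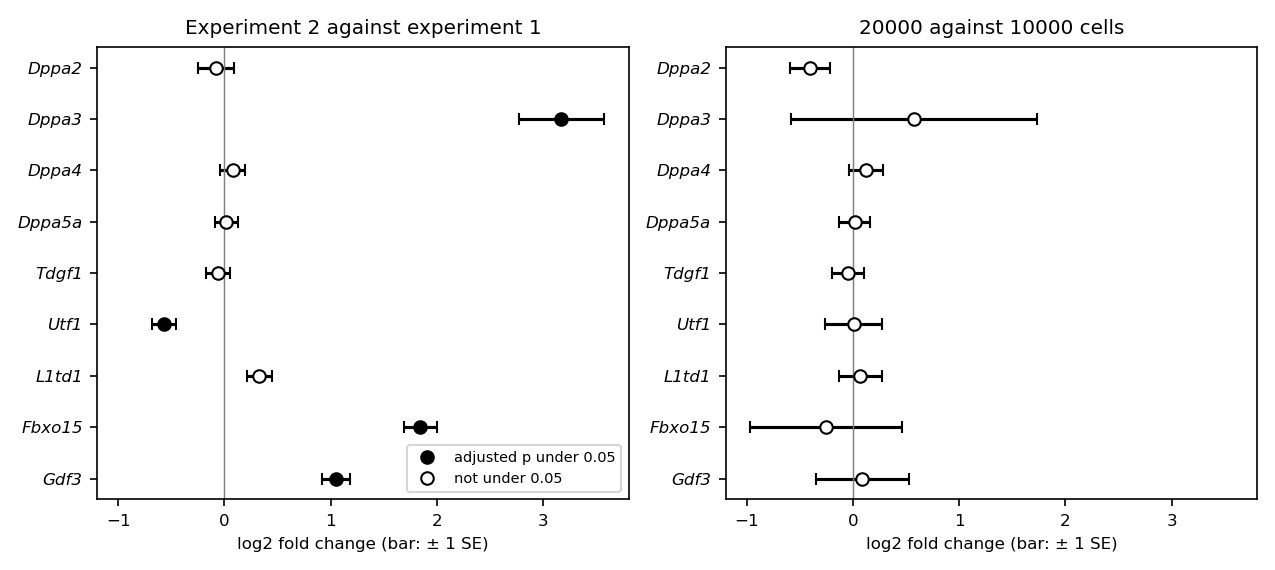
Log2 fold change of each marker gene (points) with ± 1 SE (bars) for experiment 2 against experiment 1 (left) and 20000 against 10000 cells (right), each from 4 mRNA libraries. Filled points have an edgeR adjusted p under 0.05: Dppa3, Fbxo15, Gdf3 and Utf1 on the left and none on the right.

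The library of 5000 cells has no replicate, so its levels were only set beside the mean of the other experiment 2 libraries. Relative to that mean Dppa3 was 0.65 higher on the log2 scale and Utf1 0.13 higher. Fbxo15 was at -0.40, Dppa2 at -0.33, L1td1 at -0.28, Tdgf1 at -0.20, Dppa4 at -0.19, Dppa5a at -0.04 and Gdf3 at -0.03. For all 4 genes called between experiments this library stayed on the side of experiment 2.

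Partner genes of the markers were examined as lists. The counts below are to be read against the 5.75% of all genes tested that were higher in experiment 2 and the 6.76% that were lower. Of 18 self-renewal regulators tested, 4 were higher and 0 lower, with a median log2 fold change of 0.11. Mycn, a proto-oncogene that drives proliferation, rose by 1.41 ± 0.16 on the log2 scale (edgeR, adjusted p = 1.14e-06). Klf4 (0.42 ± 0.13, edgeR adjusted p = 0.0381), Zfp42 (0.38 ± 0.11, edgeR adjusted p = 0.0282) and Klf2 (0.34 ± 0.11, edgeR adjusted p = 0.0497), zinc finger factors of the naive state, rose less. Pou5f1 (0.03 ± 0.17), Sox2 (0.31 ± 0.12) and Nanog (-0.09 ± 0.12) did not pass the test. These counts come from the same libraries as the markers' own comparison.

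For the Nodal pathway, 14 of 16 listed genes were tested, 0 were higher and 1 was lower, with a median of -0.04; a single gene of 14 is near the 6.76% of all genes tested. Nodal itself, the ligand that Cripto serves, fell by 0.67 ± 0.17 on the log2 scale (edgeR, adjusted p = 0.0116), with 60.6 and 57.7 CPM against 28.6, 28.8 and 45.5 CPM, while its inhibitors Lefty1 (0.11 ± 0.16) and Lefty2 (-0.41 ± 0.23) and the transducers Smad2 (-0.04 ± 0.20) and Smad4 (-0.03 ± 0.18) did not pass. Of the ligands, Gdf3 was thus higher and Nodal lower in experiment 2, each without overlap, and Gdf1 had 0 counts in all 5 libraries. Of 8 DNA methylation genes, partners of Dppa3, 0 were higher and 1 was lower, which is 12.5% of the list and equals the share of all genes called in either direction, with a median of -0.17. That gene was Dnmt3l, a cofactor of the de novo methyltransferases, at -0.37 ± 0.11 (edgeR, adjusted p = 0.0359). Uhrf1, which Dppa3 binds, was at -0.20 ± 0.14 (edgeR, adjusted p = 0.401) and Dnmt1 at -0.13 ± 0.12 (edgeR, adjusted p = 0.566), and neither passed.

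Of the 2-cell genes that lie downstream of Dppa2 and Dppa4, 9 of 11 were in the table and 4 were tested, with 0 higher and 3 lower (6.76% of all genes tested were lower) and a median log2 fold change of -3.29 from few counts. Zscan4a had 100 and 84 counts in experiment 1 and 0, 18 and 4 in experiment 2 (edgeR, adjusted p = 0.000309). Zscan4c had 88 and 86 against 5, 18 and 3 counts (edgeR, adjusted p = 0.000575). Zscan4d passed as well (edgeR, adjusted p = 0.0161), with 31 and 38 against 38, 6 and 0 counts, and there the library of 5000 cells, outside the fit, was as high as experiment 1. These copies are nearly identical and reads may be split among them. The 3 components of the SCF ligase core that were tested, into which Fbxo15 docks, had 0 calls, as had Lin28a, Lin28b and Trim71 beside L1td1. Between cell numbers no gene of any of these lists was called.

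**Figure D3:**
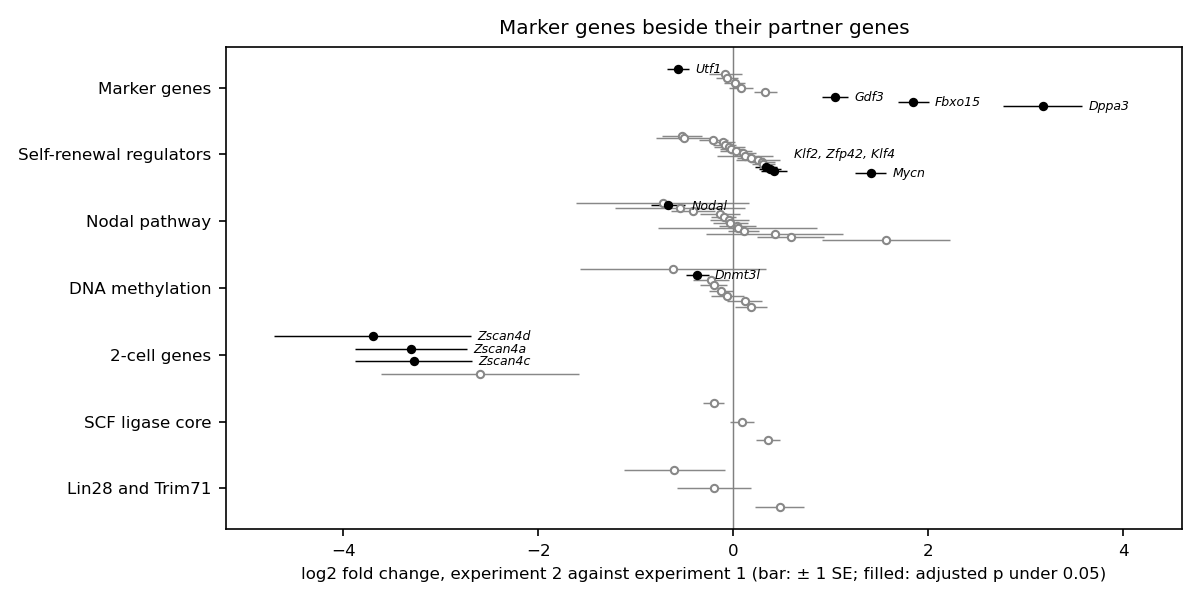
Log2 fold change of experiment 2 against experiment 1 (horizontal axis, ± 1 SE) for the marker genes and 6 lists of partner genes (rows), with filled, named points for an edgeR adjusted p under 0.05. Most partner genes lie near 0, Mycn lies at 1.41, and the Zscan4 copies, which rest on few counts, lie below -3.

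For each marker whose mean reached 10 CPM, the gene most like it among 6476 was found by Pearson's r of log2(CPM + 1) over the 5 libraries. These were Mpp6 for Dppa2 (r = 0.994), Wdr45 for Dppa4 (0.995), Gm15772 for Dppa5a (0.996), Aqr for Tdgf1 (0.997), Pkp2 for Utf1 (0.998), Brox for L1td1 (0.998), Ptprf for Fbxo15 (0.998) and Polb for Gdf3 (1.000). With 5 libraries from 2 experiments high values are common: between 14 genes (Dppa5a) and 275 genes (Gdf3) had r over 0.95 with a marker.

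Genes around the markers were looked up after the values of the markers had been seen, and 12.5% of all genes tested were called between experiments. Of the genes within 100000 bp of a marker, each counted once and the markers left out, 24 were tested and 5 were called, 2 higher and 3 lower (20.8%). Of 6 genes tested around Dppa3, 3 were called, Gdf3 among them, and of 5 tested around Gdf3, 2 were called, Dppa3 among them. Gdf3 and Dppa3 lie in 1 stretch of chromosome 6 with Nanog, a core pluripotency factor. Nanog did not pass the test, as given above, whereas Slc2a3, a glucose transporter, was higher in experiment 2 (0.45 ± 0.12, edgeR adjusted p = 0.0152) and Mfap5, a matrix protein, was lower (-1.44 ± 0.26, edgeR adjusted p = 0.000383). Next to Dppa5a lies Ooep, a maternal gene with a KH-type fold, at 125 and 120 CPM in experiment 1 and 221, 202 and 193 CPM in experiment 2. Ooep was higher (0.70 ± 0.12, edgeR adjusted p = 0.000327) where Dppa5a did not pass the test, and the other 3 genes tested there, Ddx43, Mto1 and Cgas, did not pass. Timm21, which overlaps Fbxo15, was at 23.7 and 21.0 CPM and at 15.9, 14.5 and 9.79 CPM, lower in experiment 2 (-0.88 ± 0.22, edgeR adjusted p = 0.00897) while Fbxo15 was higher. Reads in the overlap of the pair cannot be told apart without strand, and Cyb5a, the other gene tested near Fbxo15, did not pass. None of the tested genes within 100000 bp of Utf1 (5 tested), L1td1 (3 tested), Dppa2 (1 tested) or Dppa4 (1 tested) was called. Near Tdgf1, 1 of 5 tested genes was called: Prss50, a protease gene, was lower in experiment 2 (-1.41 ± 0.24, edgeR adjusted p = 0.000239), while Als2cl, Lrrc2, Rtp3 and Tmie did not pass.

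Open chromatin was described from the 8 peak lists, which hold intervals with no height, and whose read depth is unknown. The lists held 9097 to 95457 peaks, and 24.4% to 59.2% of a list were at the shortest width of 9 bp. A peak within 1000 bp of the start site, taken as the 5′ end of the gene in the count table, was present for 3, 3, 2, 4 and 5 of the 9 markers in the low-input lists, in the library order used above. Among the 6485 genes whose mean level reached 10 CPM the shares were 61.7%, 71.2%, 62.7%, 76.9% and 88.8%, and among all 24470 genes they were 31.1%, 37.4%, 31.1%, 40.5% and 50.3%. Of the markers 8 reached 10 CPM, and Dppa3 did not. In the Omni-ATAC lists of 5000, 10000 and 50000 cells the markers had 2, 6 and 8 of 9, against 38.8%, 75.9% and 95.7% of the genes that reached 10 CPM and 18.6%, 41.5% and 61.1% of all genes. At least 1 of the 8 lists had it for 8 of 9 markers, all but Dppa3, against 61.6% of all genes, and for 8 of the 8 markers that reached 10 CPM, against 96%. Utf1 and Fbxo15 had such a peak in all 5 low-input lists, which is 2 of 9 against 23.4% of all genes and 2 of 8 against 49.4% of genes that reached 10 CPM. Dppa3 and Dppa4 had it in none of them, which is 2 of 9 against 47.4% of all genes, and Dppa4 alone is 1 of 8 against 9.28%. Within 500 bp none of these lists held a peak for 4 of 9 markers, against 50.7% of all genes. Of the markers that reached 10 CPM it was 3 of 8, against 11.6%. The markers were thus near the share of all genes for a peak in all 5 lists and below that of genes that reached 10 CPM, so the reading depends on the genes they are set against. The longest list held a peak for 8 markers and the 2 shortest lists for 2 each. No test was made, as each list is 1 library of unknown depth.

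**Figure D4:**
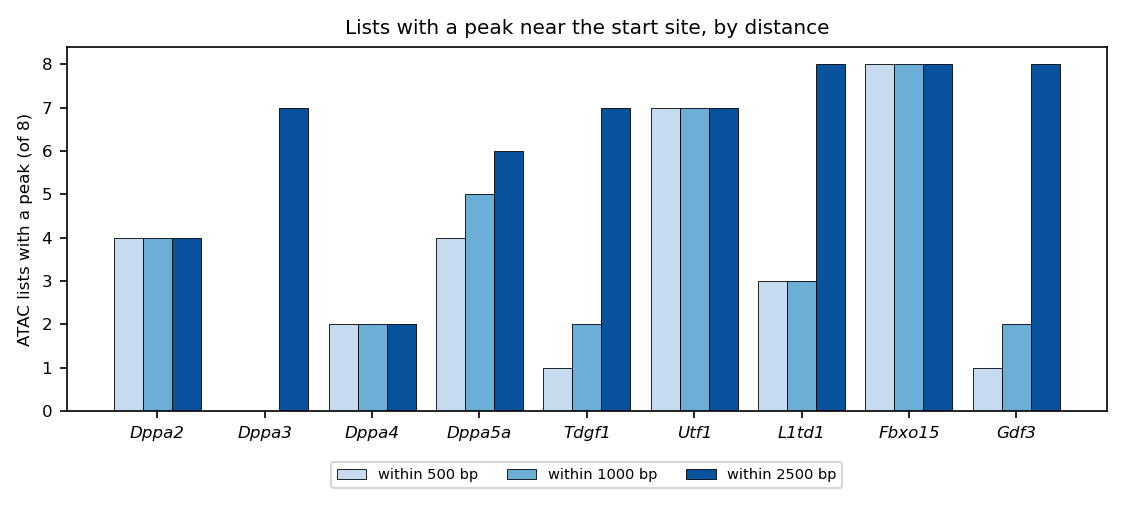
Number of the 8 ATAC lists (vertical axis) with a peak within 500, 1000 or 2500 bp of the start site of each marker gene (bars from light to dark). Fbxo15 and Utf1 are at 8 and 7 lists at every distance, whereas Dppa3 goes from 0 at 1000 bp to 7 at 2500 bp.

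Fbxo15 had a promoter peak in all 8 lists, as had 32.2% of the genes with at least 10 CPM and 14.8% of all genes. The region chr18:84934177-84934969, centred 452 bp upstream of the start in the table, was covered by 18, 154, 114, 182 and 484 bp of peak in the low-input lists and by 9, 174 and 793 bp in the Omni-ATAC lists. RefSeq's start falls inside this region. Utf1 had a promoter peak in 7 lists, all but Omni-ATAC with 5000 cells, within chr7:139943675-139944064. The covered lengths were 176, 198, 9, 189 and 378 bp and, with Omni-ATAC at 10000 and 50000 cells, 19 and 390 bp. At Utf1 these low-input peaks, apart from that of 5000 cells, were wide where the Omni-ATAC list of 10000 cells had a narrow one. That list held more peaks than 4 of the 5 low-input lists. Some regions of other markers went the other way. Omni-ATAC at 10000 cells covered 385 bp of chr4:98727978-98728409 at L1td1, against 39 to 344 bp in the low-input lists. At chr9:110947162-110947752 near Tdgf1 it covered 368 bp, against 12 to 277 bp.

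The other start sites were covered less often. Dppa5a had a promoter peak in 5 lists, Dppa2 in 4 (1 low-input and 3 Omni-ATAC), L1td1 in 3, and Dppa4, Tdgf1 and Gdf3 in 2 each. With peaks of at least 50 bp only, Dppa5a and L1td1 had one in 2 lists each, and Dppa2, Dppa4, Tdgf1 and Gdf3 in 1 each. Dppa5a, at 1469 to 1673 CPM, had its low-input promoter peaks in 3 of the 5 lists, with widths of 9, 127 and 9 bp. Dppa4, with 162 to 192 CPM, had 20 bp of peak at its start with Omni-ATAC at 10000 cells and 89 and 9 bp at 50000 cells, and none in the low-input lists.

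Several markers without a regular start-site peak had a peak a little further off. For Dppa3 the region chr6:122624393-122624856, centred 1800 bp upstream, had peaks in 7 lists, of 9, 143, 248, 215 and 263 bp in the low-input lists and 195 and 464 bp in the Omni-ATAC lists of 10000 and 50000 cells. The narrowest low-input peak was from experiment 1, where Dppa3 was lowest, but the other experiment 1 list had 143 bp, and the lists differ in length, so no order was read from it. For L1td1 the region chr4:98725487-98725730, centred 1146 bp upstream, was in all 8 lists with 92 to 244 bp of peak, and chr4:98727978-98728409, in the gene body 1439 bp downstream of the start, was in 7. For Tdgf1 the region chr9:110947162-110947752, centred 1299 bp upstream, was in 7 lists. For Dppa5a the region chr9:78369440-78369658, centred 1350 bp upstream, was in 6. For Gdf3 the region chr6:122608495-122608688, in the gene body 1480 bp from the start, was in all 8 lists. With the window widened to 2500 bp the pairs of marker and list with a peak went from 33 to 57. All 5 low-input lists then held a peak for 6 of 9 markers, against 25.4% of all genes, and for 5 of the 8 that reached 10 CPM, against 52%. None of them held one for 1 marker, Dppa4, against 42.4% of all genes and 6.6% of those that reached 10 CPM.

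**Figure D5:**
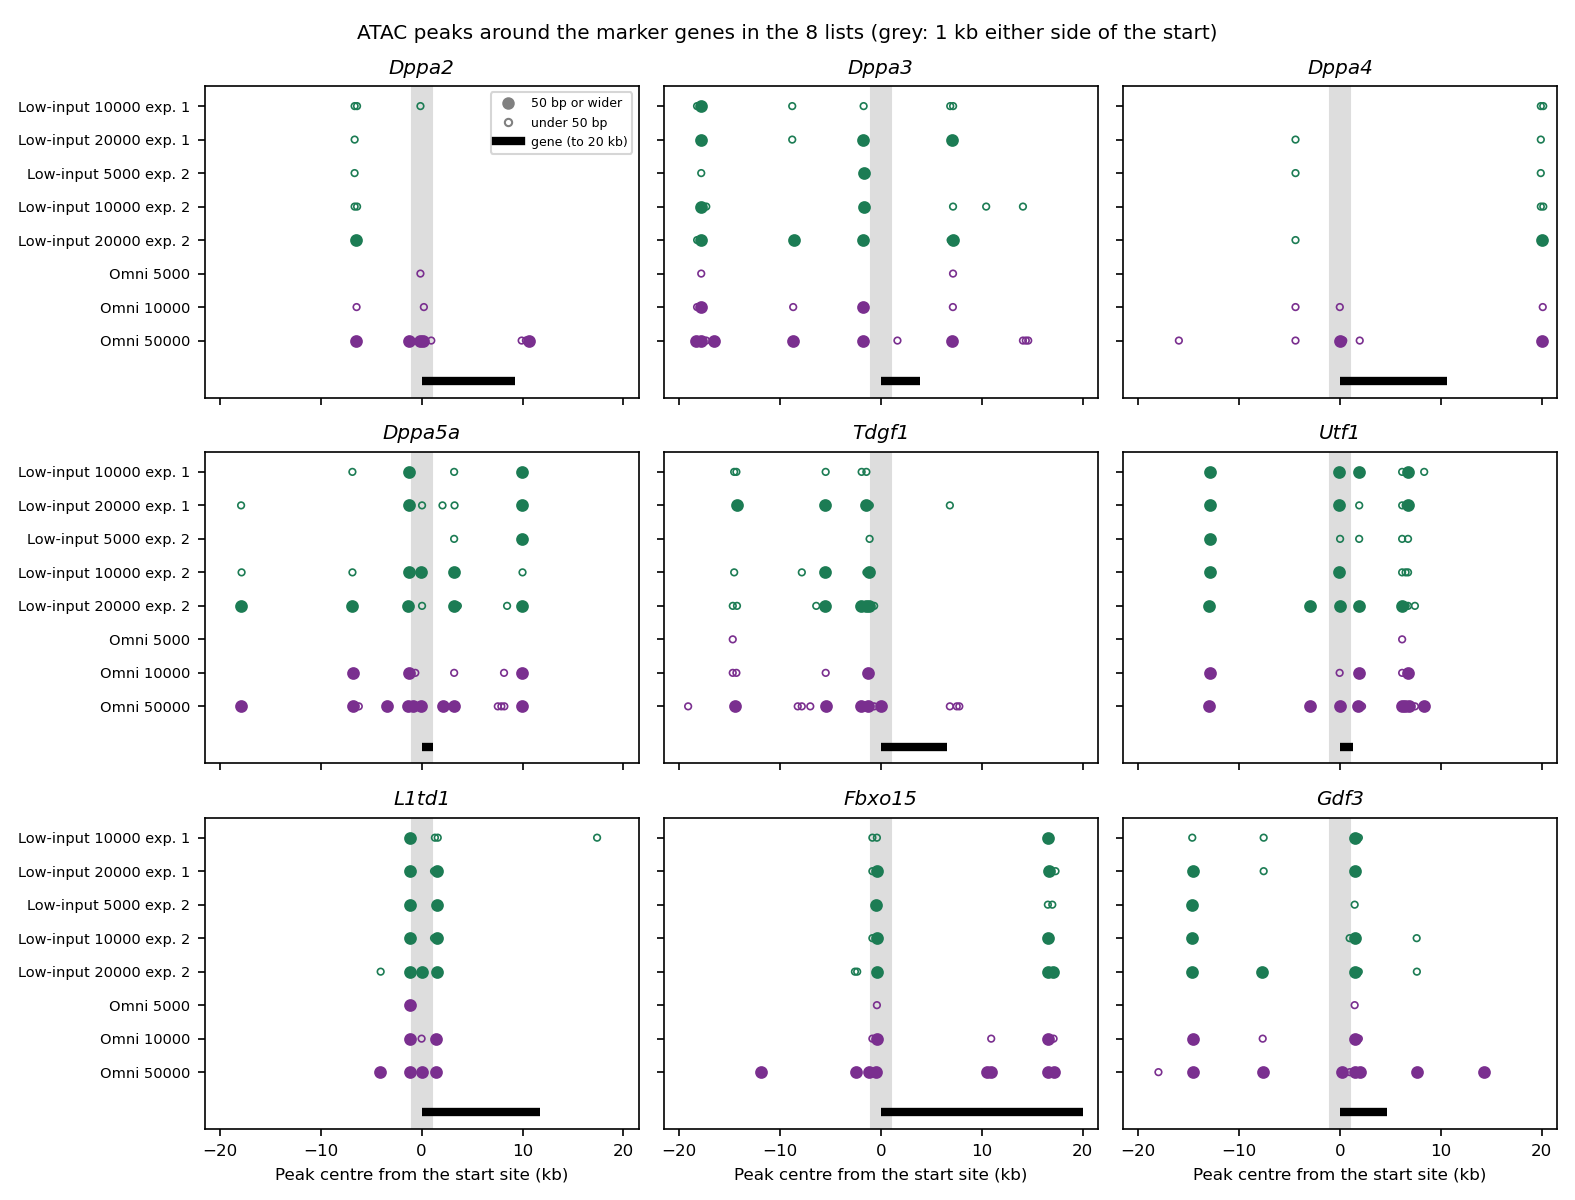
Centres of the ATAC peaks within 20 kb of the start site of each marker gene (horizontal axis, kb, negative upstream) in the 8 lists (rows; green low-input, purple Omni-ATAC); filled points are peaks of at least 50 bp, open points narrower ones, the grey band is 1 kb either side of the start and the black bar the gene. Peaks recur at about the same distance in many lists. They lie on the start for Utf1, just upstream for Fbxo15, L1td1, Tdgf1, Dppa5a and Dppa3, and within the gene for Gdf3.

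Within 20000 bp of the genes the peaks of the 8 lists merged into 83 regions. A list counts for a region when any of its peaks lies there. Of the regions, 14 (16.9%) had a peak in all 5 low-input lists, against 9.24% of the 107870 regions of the genome, and 4 (4.82%) in all 8 lists, against 4.84%. With peaks of at least 50 bp only, 2 of 48 regions (4.17%) had one in all 5 low-input lists, against 6.71% of 59396, and 1 (2.08%) in all 8, against 2.39%. The share near the markers was thus above that of the genome with all peaks and below it with these. The 4 regions with a peak of any width in all 8 lists were those of L1td1, Fbxo15 and Gdf3 above and chr7:139949909-139950049, which is 6123 bp downstream of the Utf1 start. Another 31 regions (37.3%) were found with Omni-ATAC at 50000 cells only, against 44.5% of the genome's. Neighbouring markers shared regions. Between Dppa4 and Dppa2, chr16:48303578-48303884, centred 6543 bp upstream of Dppa2, was in 7 lists with 28, 19, 9, 38 and 262 bp of peak in the low-input lists, although neither start site was covered in most of these. The region 1800 bp upstream of Dppa3 also lies upstream of Gdf3, and the one in the body of Gdf3 lies upstream of Dppa3.

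Some recurrent regions were close to the start of another gene. In the body of Fbxo15, chr18:84951461-84951735 was in 7 lists and is centred 74 bp from the start of Timm21. Upstream of Tdgf1, chr9:110951488-110951698 was in 6 lists and is centred 48 bp from the start of Lrrc2. Far upstream of Utf1, chr7:139930826-139930970 was in 7 lists with 78 to 145 bp of peak, and its nearest start site was that of Utf1, at 12958 bp. Closer to Utf1, chr7:139945414-139945800, centred 1751 bp downstream of its start, was in 6 lists with 14 to 387 bp of peak. Motifs were not searched in either region. For Dppa5a, chr9:78358177-78358369, 9926 bp downstream of its start, was in 7 lists with 45 to 193 bp of peak.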

How the data were processed

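Gene counts, whole numbers per gene in 24470 rows for 5 mRNA libraries, and 8 lists of ATAC peak intervals were deposited by the authors. Per the submitters' processing notes, which give no roles, the tools were cutadapt, Bowtie2 2.1.0, SAMtools 1.3.1, Picard, bedtools 2.24.0, MACS2 2.1.1, STAR 2.5, featureCounts and Subread 1.5.0-p1, with mm10. The use of strand, how reads with several matches were handled and the peak threshold are not given in the sources used here. Each list is of 1 library. Groups came from the sample titles. No column of another sample was found (0 unused).

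CPM were computed from the deposited counts over the library total. Intervals of CPM are 95% Wilson intervals, and they and the floor of 3 counts cover counting error only, since the reads carry no molecular identifiers. Tests used edgeR 4.0.16 in R 4.3.3 (TMM, filterByExpr, glmQLFit, glmQLFTest, Benjamini-Hochberg adjustment over all genes tested, threshold 0.05) on 4 libraries without a block. The SE is the absolute log2 fold change over the square root of F, and 95% intervals of fold changes use the t distribution with the test's own degrees of freedom. The steps were tested on simulated counts. Peaks were joined in Python, with 1 bp as the smallest overlap, within 1000 bp of the start and within 20000 bp of the gene. Of the gene IDs 24467 matched RefSeq GRCm38.p6. Python 3.11.15, pandas 2.3.3, numpy 2.4.6, scipy 1.17.1 and matplotlib 3.10.9 were used.

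By the series' design text the experiments were done on different days, so the experiment number pairs libraries; the pairing was used as a block in an alternative only. As a check, the log2 difference between experiments was taken at each of these inputs (10000 and 20000 cells), and over 6484 genes these differences had r = 0.685 and the same sign in 70.2%. No library was a copy of another (chi-square per gene at least 10.7).

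The marker genes and the partner lists were chosen with earlier results of these data known. Named genes are the 9 markers, list genes past the threshold (at most 5 per list), the defining cell type markers, the most alike gene of each marker and the nearest start site of a region. Other genes, such as further members of a list and the neighbours within 100000 bp, were named after their values were seen. Alternatives were DESeq2 1.42.0, RLE size factors, scaling by library size alone, no filter, a mean of at least 10 CPM, blocks, a log2 fold change of at least 1, the library of 5000 cells added, each library left out, start windows of 500 and 2500 bp, peaks of at least 50 bp, gene bodies, the widest peaks of each list, 10000 bp around the genes, and TMM-scaled CPM. Promoter windows of 3 markers were used.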

Additional observations from a re-analysis of the deposited data

Results flagged for a closer look

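In 6 cases the log2 ratio of a marker gene was above 0 in one pair of libraries and below 0 in the other pair. Each pair is 1 library against 1, so the difference was not tested. In 3 of the 6 each ratio was larger than its 95% counting error, which leaves out the variation between libraries. For Dppa5a the log2 ratio of CPM of 20000 to 10000 cells was 0.19 in experiment 1 and -0.12 in experiment 2. For the same gene the log2 ratio of experiment 2 to experiment 1 was 0.17 at 10000 cells and -0.14 at 20000 cells, which uses the same 4 libraries. For Utf1 the log2 ratio of 20000 to 10000 cells was -0.10 in experiment 1 and 0.20 in experiment 2. In the other 3 at least 1 ratio was within counting error: 20000 to 10000 cells gave 0.020 and -0.075 for Tdgf1 and -0.052 and 0.19 for Gdf3 in experiments 1 and 2, and experiment 2 to experiment 1 gave -0.17 and 0.024 for Dppa2 at 10000 and 20000 cells. Groups here have at most 3 libraries, too few for a check of single outlying libraries.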

How the results depend on the processing

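Dppa3, Fbxo15, Gdf3 and Utf1 kept their direction between experiments under every alternative run, and their adjusted p stayed under 0.05 except that Utf1 fell short of a log2 fold change of at least 1. Dppa3, with a mean under 10 CPM, could not be tested under that minimum. The number of markers called ran from 3 to 5 over the alternatives and was 4 with each library left out. Leaving out each library, where the lone library of an experiment is assumed to vary like the others, gave edgeR log2 fold changes of 2.83 to 3.46 for Dppa3, 1.71 to 1.99 for Fbxo15, 0.96 to 1.14 for Gdf3 and -0.66 to -0.47 for Utf1. For 3 of the 5 genes that had not passed, the sign depended on the library left out: -0.29 to 0.17 for Dppa2, -0.011 to 0.19 for Dppa4 and -0.075 to 0.13 for Dppa5a. Over all genes the calls between experiments were 1567, and 803 to 1817 with a library left out (1018 without 10000 cells of experiment 1, 803 without 10000 cells and 869 without 20000 cells of experiment 2), and 612 with a log2 fold change of at least 1.

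Between cell numbers the log2 fold changes with a library left out ran from -1.89 to 2.75 for Dppa3, -1.37 to 1.03 for Fbxo15, -0.60 to 0.65 for Gdf3, -0.29 to 0.41 for Utf1, -0.12 to 0.32 for L1td1, -0.062 to 0.12 for Dppa5a and -0.091 to 0.020 for Tdgf1. Among genes of at least 10 CPM, Dppa5a was at -0.0017 and Utf1 at -0.0083, against 0.015 and 0.0060, and the cause was not tested. Genes called were 2 without the filter on low counts and 4 with the experiment as a replicate block, 0 of them markers. A replicate block by cell number gave 1765 genes and the same 4 markers between experiments, and changed no other marker's call.

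Pairs of marker and list with a start-site peak, 33 as reported, were 57 with 2500 bp, 19 with peaks of at least 50 bp and 13 with the widest peaks of each list. Regions within 20000 bp were 48, against 83, with peaks of at least 50 bp. The ATAC results are limited by unknown depth, and the level of Dppa3 in experiment 1 by 13 and 17 counts.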
